A study of Mus musculus with 9 samples.

Results

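The genes described here are the receptors and enzymes of the endocannabinoid system in the striatum of R6/2 mice. They are 9 genes of the 18194 on the arrays that could be named, chosen by symbol, and 16 of 34958 probe sets that name exactly 1 gene belong to them. Where a gene had several probe sets, the one with the highest mean over the 9 arrays was its main one. The study compared striata of 5 R6/2 mice, aged 85 days (R62_86) or 83 days (R62_95, R62_105, R62_107 and R62_109), with striata of 4 wild-type mice aged 85 days (46, 47, 49 and 66). All were females of mixed C57Bl/6 / CBA background at 12 weeks, untreated as far as the labels say, and each mouse gave 1 array of total RNA. R6/2 mice carry a transgene for exon 1 of human huntingtin with an expanded CAG repeat and are a model of Huntington disease with an early onset. The transgene adds to the mouse's own huntingtin genes. The comparison asked which striatal transcripts differed with the transgene at this age.

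Endocannabinoids are lipids that a neuron makes on demand and that act backwards across the synapse. The best known are 2-arachidonoylglycerol (2-AG) and anandamide. In the striatum, 2-AG made by spiny projection neurons reaches the CB1 receptor on incoming axon terminals and lowers transmitter release. Spiny neurons also carry CB1 on their own axons, and the receptor is among the abundant G protein-coupled receptors of the basal ganglia.

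Values are log2 expression, a difference is R6/2 minus wild-type on the log2 scale, and a gene passed when its p from limma, adjusted over all genes, was under 0.05. Of the 9 genes, 1 passed as lower in R6/2 mice (Cnr1) and 2 as higher (Cnrip1 and Faah), while over all genes 16.9% passed, 7.57% lower and 9.28% higher. The groups did not overlap in these 3 genes, as in 17.3% of all genes (8.08% with R6/2 below, 9.18% with R6/2 above). The median difference of the 9 genes was -0.03, against -0.02 for all genes.

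The promoter windows of the 3 genes that passed are shown to set their base composition side by side. They are the RefSeq windows of 250 bases before to 50 bases after a transcript start in GRCm38.p6, 5′ to 3′ on the gene's strand, and 8 of the 9 genes matched the table by symbol. Cnr1 has several such windows there, and the one of lowest coordinate is given. Capitals mark GGGCGG (the GC box that Sp1 family factors bind) and GCGNGGGCG (bound by Egr factors), each searched on both strands.
Cnr1, chr4:33924014-33924313, plus strand: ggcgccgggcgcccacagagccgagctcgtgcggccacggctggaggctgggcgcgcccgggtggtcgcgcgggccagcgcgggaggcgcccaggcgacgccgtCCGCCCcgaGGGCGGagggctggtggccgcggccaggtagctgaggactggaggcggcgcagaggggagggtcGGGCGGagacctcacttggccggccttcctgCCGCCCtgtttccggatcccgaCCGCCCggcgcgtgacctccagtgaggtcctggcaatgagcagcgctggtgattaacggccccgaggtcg
Cnrip1, chr11:17051609-17051908, plus strand: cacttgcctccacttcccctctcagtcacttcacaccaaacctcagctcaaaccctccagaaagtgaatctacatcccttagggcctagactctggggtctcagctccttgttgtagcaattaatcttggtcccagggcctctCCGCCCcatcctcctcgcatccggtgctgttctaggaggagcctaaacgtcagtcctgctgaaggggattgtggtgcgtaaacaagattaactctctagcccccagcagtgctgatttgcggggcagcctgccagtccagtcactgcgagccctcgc
Faah, chr4:116017875-116018174, minus strand: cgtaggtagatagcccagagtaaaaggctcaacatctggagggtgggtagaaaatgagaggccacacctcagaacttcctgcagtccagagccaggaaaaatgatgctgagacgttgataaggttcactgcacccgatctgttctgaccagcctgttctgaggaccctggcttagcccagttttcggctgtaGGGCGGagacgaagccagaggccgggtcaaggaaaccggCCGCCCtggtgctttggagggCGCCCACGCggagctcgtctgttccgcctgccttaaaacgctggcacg
The Cnr1 window shown held 5 GC boxes and was 76.3% G or C, while the other Cnr1 windows held 0 and were 69.0% and 46.3%. The Cnrip1 window held 1 and was 56.0%, and the Faah window held 2 and was 57.7%. The Faah window also held 1 GCGNGGGCG match, which did not overlap a GC box. TGACGTCA, the cyclic AMP response element, was in none of the 3. Among all 32851 promoter windows of this table, 35.7% held GGGCGG, 5.55% held GCGNGGGCG and 1.79% held TGACGTCA, and the median window was 52.7% G or C. These matches describe the letters of the windows only.

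Facts of the arrays that touch the results are these. The array medians lay between 5.37 and 5.45, and 3066 of 18194 genes passed. All 11 measured spiny neuron markers fell (median -1.26), as did 3 of 3 indirect and 4 of 6 direct pathway markers. Of the other lists, 4 of 7 GABA and cholinergic interneuron, 4 of 7 astrocyte, 4 of 8 microglia and 3 of 6 oligodendrocyte markers fell. By limma, 0 of 7 choroid plexus, 0 of 6 endothelial, 0 of 3 CCK interneuron and 0 of 2 B cell markers passed, with 0, 1, 1 and 0 at an unadjusted p under 0.05. Of 7 cortex projection neuron markers 4 rose (median 1.19), and their mean also varied among wild-type mice. R62_107 and wild-type 47 and 66 had the highest choroid plexus marker means (7.48, 8.95 and 9.07, against 5.57 to 6.51 in the other 6 mice) and are called the choroid-rich arrays. In R62_95 the beta-actin control probe set at the 3' end exceeded that at the 5' end by 1.24, against 0.45 to 0.79 in the other 8 mice, which is the usual sign of less intact RNA.

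Cnr1 (chr4:33923171-33948831 in GRCm38.p6), which encodes the CB1 receptor, had the largest difference of the 9 genes. Its main probe set was 10.03, 9.62, 9.76, 10.09 and 10.23 in R62_86, R62_95, R62_105, R62_107 and R62_109. In wild-type 46, 47, 49 and 66 it was 11.04, 11.31, 11.46 and 11.30. Every R6/2 mouse lay below every wild-type mouse. The means were 9.95 ± 0.25 in R6/2 (SD, n = 5) and 11.28 ± 0.17 in wild-type mice (SD, n = 4), a difference of -1.33 ± 0.13 (SE), with a 95% confidence interval from -1.62 to -1.05 and an adjusted p of 0.000213. R6/2 mice thus had 39.7% of the wild-type level, and 0.357% of all genes had a lower difference. R62_86, the only R6/2 mouse as old as the wild-type mice, was 1 of the 5 low values. With age as a covariate the difference was -1.25. Of the 5 R6/2 mice, 4 have an age that no wild-type mouse shares. The genotype term of this fit is thus R62_86 alone against the 4 wild-type mice. It cannot tell age from genotype.

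**Figure D1:**
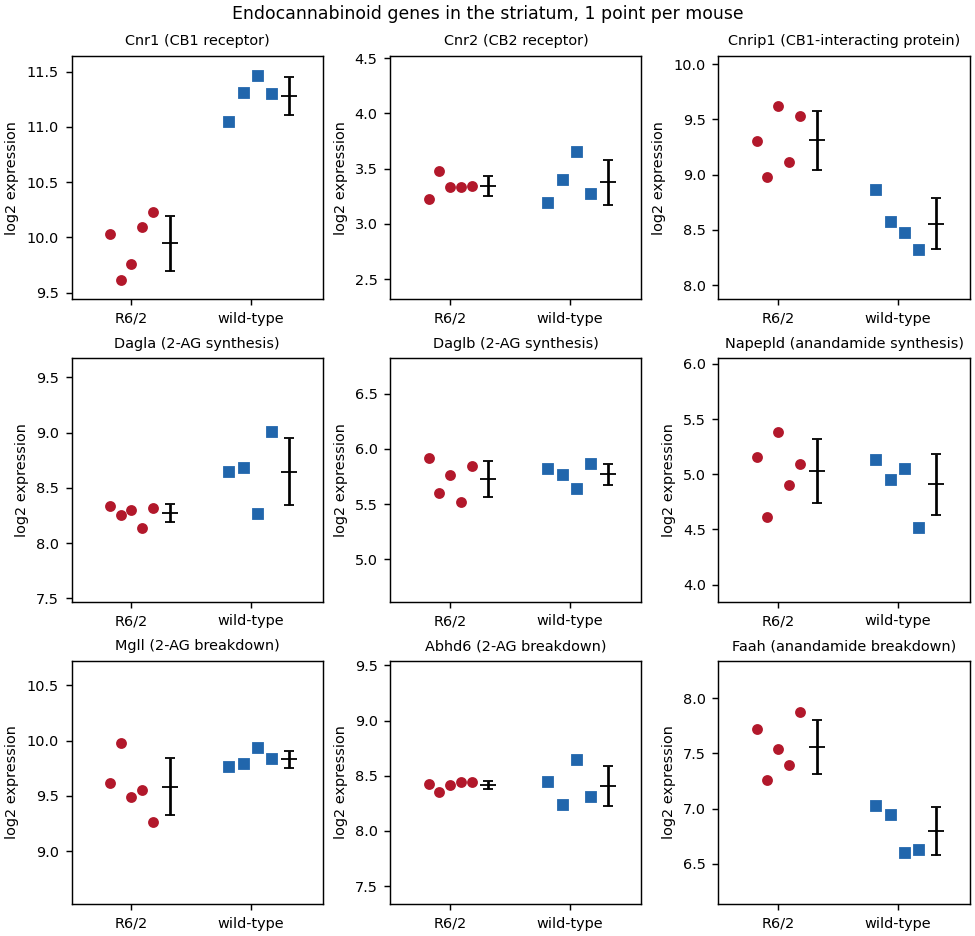
Log2 expression (vertical axes, each spanning 2.2 log2 units) of the main probe set of each gene in 5 R6/2 mice (red circles) and 4 wild-type mice (blue squares), with mean and SD beside the points. Only in the panels of Cnr1, Cnrip1 and Faah do the groups not overlap, with Cnr1 lower and Cnrip1 and Faah higher in R6/2 mice.

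The other Cnr1 probe set was dimmer and went the same way. It was 6.61, 5.00, 6.29, 6.50 and 6.43 in R62_86, R62_95, R62_105, R62_107 and R62_109, against 7.43, 7.73, 7.17 and 7.25 in wild-type 46, 47, 49 and 66. The groups again did not overlap, and R62_95, the mouse with the widest gap between 3' and 5' controls, lay far below the rest. Over all 45101 probe sets, of which 10.4% passed, this probe set differed by -1.23 ± 0.30 (SE, adjusted p 0.0269), and by -0.94 ± 0.12 without R62_95 (adjusted p 0.00251). Its call ended without R62_105 (adjusted p 0.0539), wild-type 46 (0.0599), wild-type 47 (0.0808) or wild-type 66 (0.0577). The main probe set was -1.25 without R62_95 and passed whichever mouse was left out.

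The Cnr1 difference was close in size to that of the spiny neuron markers. The 11 spiny neuron markers averaged 10.20 ± 0.36 in R6/2 (SD, n = 5) and 11.59 ± 0.17 in wild-type mice (SD, n = 4), a difference of -1.39. Single markers ranged from -2.71 (Scn4b) to -0.70 (Foxp1), with the phosphatase inhibitor gene Ppp1r1b at -1.70 and the phosphodiesterase gene Pde10a at -1.48. Within R6/2 mice, Cnr1 and the marker mean did not share an order. R62_95 had the lowest Cnr1 (9.62) with a marker mean of 10.41, and R62_109 the highest Cnr1 (10.23) with a mean of 10.11. Per mouse, Cnr1 minus this mean was -0.25 ± 0.39 in R6/2 (SD, n = 5) and -0.31 ± 0.22 in wild-type mice (SD, n = 4). The difference of 0.06 did not pass an exact permutation test, two-sided, over all 126 ways to split the mice (p = 0.786), and it ranged from -0.04 to 0.20 with single mice left out. In these bulk samples, fewer cells of a type and less RNA per cell cannot be told apart. With the cortex marker mean as a covariate Cnr1 was -1.20 ± 0.21 (adjusted p 0.0362), Ppp1r1b was -1.01 ± 0.22 (adjusted p 0.0694) and Pde10a was -1.35 ± 0.28 (adjusted p 0.0569).

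Cnr2 (chr4:135895189-135920219) encodes CB2, the receptor of immune cells, and lay near the dim end of the arrays in both genotypes. Its probe set was 3.23 to 3.48 in R6/2 mice (median 3.34) and 3.19 to 3.65 in wild-type mice, below the lowest quartile of every array (3.84 to 3.90). The groups overlapped, and the difference of -0.03 had a 95% confidence interval from -0.24 to 0.18 (adjusted p 0.846).

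Cnrip1 (chr11:17051859-17079372), whose protein binds the tail of CB1, was higher in R6/2 mice. It was 9.31, 8.98, 9.62, 9.11 and 9.53 in R62_86, R62_95, R62_105, R62_107 and R62_109, against 8.86, 8.57, 8.47 and 8.32 in wild-type 46, 47, 49 and 66. The lowest R6/2 mouse (R62_95) and the highest wild-type mouse (46) lay 0.12 apart. The difference was 0.75 ± 0.15 (SE, adjusted p 0.00612), which is 169% of the wild-type level. The other Cnrip1 probe set rose by 0.67 ± 0.15 (adjusted p 0.0199 over all probe sets), again without overlap. In that probe set R62_95 was the highest mouse (7.09), whereas it was the lowest R6/2 mouse in the main one.

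The order of Cnrip1 among wild-type mice followed the cortex projection neuron markers. The mean of these 7 markers was 6.39, 5.96, 5.44 and 5.08 in wild-type 46, 47, 49 and 66, the same order as Cnrip1, and 6.20 to 7.32 in R6/2 mice. With this mean as a covariate Cnrip1 was 0.25 ± 0.13 and did not pass (adjusted p 0.402). With the choroid-rich arrays left out it was 0.69 ± 0.19 (adjusted p 0.0870). With age as a covariate, R62_86 alone against the wild-type mice, it was 0.75.

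**Figure D2:**
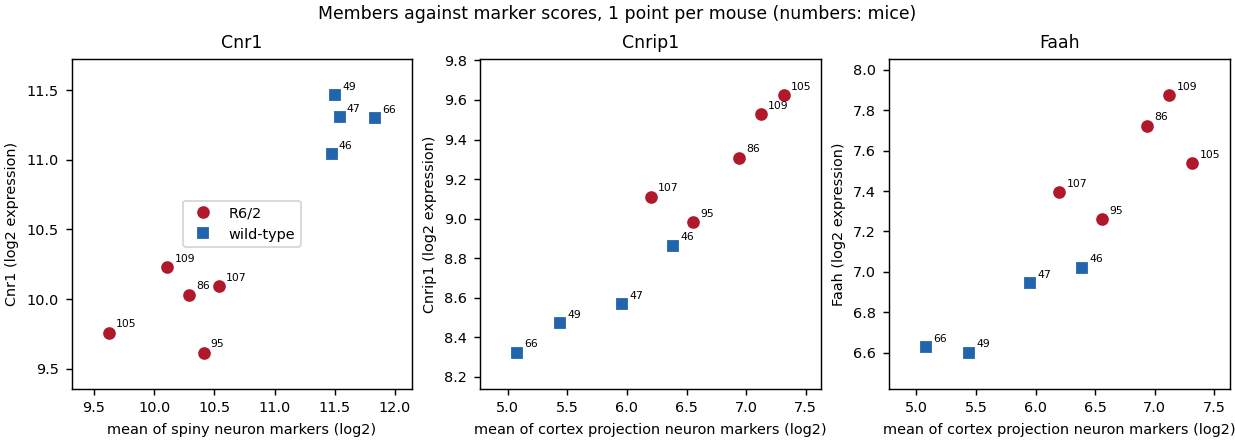
Log2 expression of Cnr1 against the mean of 11 spiny neuron markers, and of Cnrip1 and Faah against the mean of 7 cortex projection neuron markers, for R6/2 (red circles) and wild-type mice (blue squares), 1 numbered point per mouse. Cnr1 and the spiny neuron mean are both low in all 5 R6/2 mice but do not share an order within them. Cnrip1 runs up with the cortex mean within the wild-type mice, from mouse 66 to mouse 46.

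None of the 3 genes for enzymes that make endocannabinoids passed. Dagla (chr19:10245265-10304877) encodes the diacylglycerol lipase that makes 2-AG at brain synapses. It was 8.34, 8.25, 8.30, 8.14 and 8.32 in R62_86, R62_95, R62_105, R62_107 and R62_109, against 8.64, 8.68, 8.26 and 9.01 in wild-type 46, 47, 49 and 66. Wild-type 49 lay among the R6/2 values and the other 3 wild-type mice above them. The difference was -0.38 ± 0.12 (SE), 77.1% of the wild-type level, with a 95% confidence interval from -0.65 to -0.10, and it did not pass (adjusted p 0.0605). It passed without wild-type 49 (-0.50 ± 0.09, adjusted p 0.00660). It passed too after centring on housekeeping genes (-0.45, adjusted p 0.0374), whereas with the choroid-rich arrays left out it was -0.15 (adjusted p 0.488). With the cortex marker mean as a covariate it was -0.38 ± 0.20 and did not pass (adjusted p 0.430). The housekeeping mean was itself 0.08 higher in R6/2 mice, so centring on it lowered every gene's difference by that amount.

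Daglb (chr5:143464484-143504442) encodes a related diacylglycerol lipase known from microglia. It was 5.52 to 5.92 in R6/2 mice (median 5.76) and 5.64 to 5.86 in wild-type mice, with a difference of -0.04 ± 0.09 (adjusted p 0.782). Napepld (chr5:21662901-21701622) encodes the phospholipase that releases anandamide and related amides. It was 4.61 to 5.39 in R6/2 mice (median 5.09) and 4.51 to 5.13 in wild-type mice, with a difference of 0.12 ± 0.16 and a 95% confidence interval from -0.24 to 0.47 (adjusted p 0.655). Its direction was not settled, since it was -0.36 ± 0.18 with the cortex marker mean as a covariate, -0.03 with the choroid-rich arrays left out and -0.01 without wild-type 66. Both genes had overlapping groups.

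Faah was the other gene that rose. Faah (chr4:115996668-116018837) encodes fatty acid amide hydrolase, which degrades anandamide inside neurons. It was 7.72, 7.26, 7.54, 7.40 and 7.88 in R62_86, R62_95, R62_105, R62_107 and R62_109, against 7.02, 6.94, 6.60 and 6.63 in wild-type 46, 47, 49 and 66. The groups did not overlap, and the difference of 0.76 ± 0.14 (SE, adjusted p 0.00406) is 169% of the wild-type level. The dimmer Faah probe set rose by 0.52 ± 0.13 (adjusted p 0.0306 over all probe sets). Its call ended without R62_86 (adjusted p 0.0729), R62_105 (0.0741), R62_109 (0.0686), wild-type 49 (0.0681) or wild-type 66 (0.0858). Among wild-type mice, Faah was higher in 46 and 47, the mice richer in cortex markers. With the cortex marker mean as a covariate it was 0.37 ± 0.16 (adjusted p 0.324), and with the choroid-rich arrays left out 0.79 ± 0.19 (adjusted p 0.0587). With age as a covariate, R62_86 alone against the wild-type mice, it was 0.93.

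Mgll (chr6:88724412-88828360) encodes monoacylglycerol lipase, the main enzyme of 2-AG breakdown in the brain, in axon terminals and glia. Its main probe set was 9.61, 9.98, 9.49, 9.56 and 9.26 in R62_86, R62_95, R62_105, R62_107 and R62_109, against 9.76, 9.79, 9.94 and 9.84 in wild-type 46, 47, 49 and 66. R62_95 stood above all wild-type mice and the other 4 R6/2 mice below them. The difference of -0.25 ± 0.12 (SE, adjusted p 0.184) did not pass, and without R62_95 it was -0.35 and passed (adjusted p 0.0217). Of the 3 other probe sets, 1 fell by 0.31 ± 0.07 (adjusted p 0.0239 over all probe sets), with R6/2 mice at 8.79 to 9.12 and wild-type mice at 9.22 to 9.34. In this probe set R62_95 was the lowest mouse. Its call ended without R62_105 (adjusted p 0.0565), R62_109 (0.0557), wild-type 47 (0.0613), wild-type 49 (0.0512) or wild-type 66 (0.0570). The remaining probe sets gave -0.32 ± 0.10 (adjusted p 0.0750, and 0.0212 without R62_95) and, near the dim end, 0.02 ± 0.08 (adjusted p 0.916). The mean of the Mgll probe sets fell by 0.22 (adjusted p 0.0468). With the cortex marker mean as a covariate the main probe set was -0.05 ± 0.18 (adjusted p 0.936). With the choroid-rich arrays left out it was -0.26 ± 0.18 (adjusted p 0.438).

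Abhd6 (chr14:8002888-8056773), a membrane hydrolase that takes a smaller share of 2-AG breakdown, lay close to the wild-type level. It was 8.35 to 8.44 in R6/2 mice (median 8.43) and 8.23 to 8.64 in wild-type mice, a difference of 0.01 ± 0.08 with a 95% confidence interval from -0.17 to 0.19 (adjusted p 0.967). The R6/2 values spread over less than 0.1 and lay within the wild-type range. Its other probe set gave -0.22 ± 0.10 (adjusted p 0.211).

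**Figure D3:**
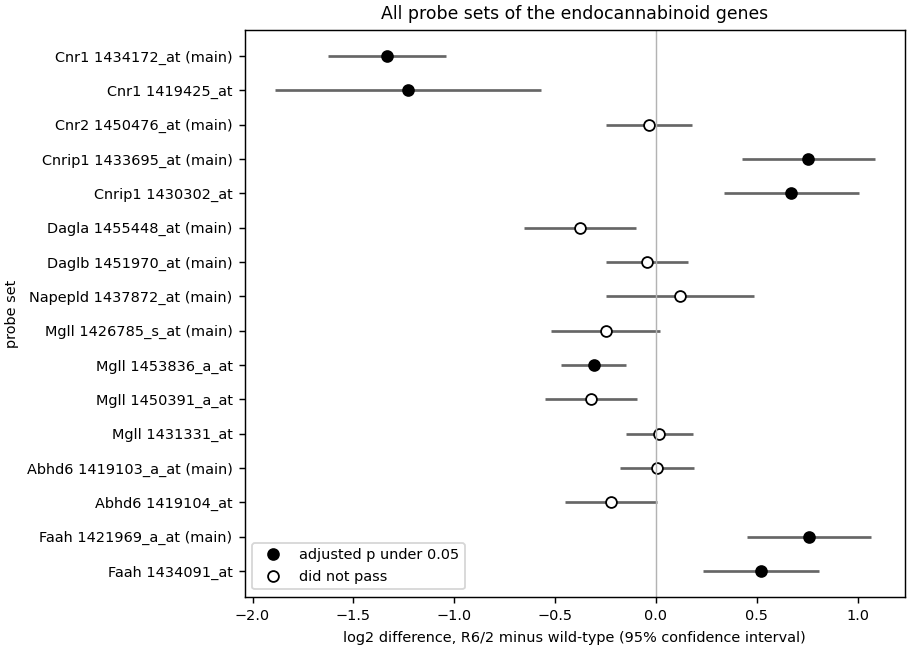
Log2 differences, R6/2 minus wild-type, of all 16 probe sets of the 9 genes with 95% confidence intervals, filled where the adjusted p over all probe sets was under 0.05. Both probe sets of Cnr1 lie near -1.3, both of Cnrip1 and Faah lie above 0, and the 4 of Mgll lie between -0.32 and 0.02.

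Genes of opposed or shared function were then set against each other within each mouse, in 6 pairs with exact two-sided permutation tests and adjustment over the 6. The differences between genotypes are given here, since levels of different probe sets cannot be compared. Cnr1 minus Cnrip1 was 0.63 ± 0.31 in R6/2 (SD, n = 5) and 2.72 ± 0.38 in wild-type mice (SD, n = 4). The difference was -2.09 without overlap (exact permutation p = 0.00794, the smallest the design allows, adjusted 0.0317). Each of these genes already separated the groups, in opposite directions, so this result was fixed in advance and is no further support. Napepld minus Faah, the gene pair for making and breaking down anandamide, differed by -0.64 between genotypes (exact p = 0.0159, adjusted 0.0317). The groups again did not overlap, but R62_105 (-2.15) and wild-type 66 (-2.12) lay close together. Faah alone already separated the groups and Napepld did not pass, so this pair largely repeats the Faah difference and is no separate support. Dagla minus Daglb differed by -0.33 (exact p = 0.0159, adjusted 0.0317), with wild-type 49 within the R6/2 range.

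The other pairs among genes of 2-AG did not pass. Dagla minus Mgll differed by -0.13 (exact p = 0.571, adjusted 0.686), with -0.29 to -0.01 when single mice were left out, and was 0.11, the opposite direction, with the choroid-rich arrays left out. Mgll minus Abhd6 differed by -0.26 (exact p = 0.143, adjusted 0.214), and passed without R62_95 (-0.37, adjusted 0.0429). With 1 mouse left out the smallest p is 0.0286 or 0.0179. The 3 calls then ended in 8 of 9 cases (adjusted p 0.0536 to 0.114) and held without R62_95 (0.0429). Without R62_95, Mgll minus Abhd6 also reached the smallest exact p (0.0286), which lowered the adjusted p of every pair at that p. With p this coarse and adjusted over 6 pairs, a held or ended call cannot show dependence on a mouse. The differences were -2.27 to -1.96 for Cnr1 minus Cnrip1, -0.74 to -0.53 for Napepld minus Faah and -0.42 to -0.24 for Dagla minus Daglb.

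Beyond the 9 genes, 49 other genes of the pathway were measured of 55 listed by role. Of these 9 fell (18.4%), 11 rose (22.4%) and 29 did not pass, against 7.57% lower and 9.28% higher over all genes, and their median difference was 0.02. Most of the listed genes were among the brighter 50% of genes, where calls were more frequent. In a fit of that part alone, 1086 of 9097 genes passed as lower and 1624 as higher. The lists were also chosen with earlier results of these data known. Of 11 genes upstream of 2-AG synthesis 5 fell and 2 rose (median -0.21). Homer1, the scaffold that couples group I glutamate receptors to their effectors, fell by 0.82 ± 0.07 (SE), and Grm5, the metabotropic receptor mGluR5, fell by 0.65 ± 0.10. Plcb1, a phospholipase C that yields the diacylglycerol precursor, fell by 0.59 ± 0.08, and Camk2b, of a kinase that phosphorylates diacylglycerol lipase, by 0.61 ± 0.10. Chrm1, the M1 muscarinic receptor (-0.48, named outside the rule), completes the 5. Gnaq, the G protein subunit between these receptors and phospholipase C, rose by 0.39 ± 0.07, as did Plcb4 (0.51, likewise outside the rule).

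Of 14 genes downstream of CB1, 5 rose and 1 fell (median 0.26). Adcy5, the adenylyl cyclase of spiny neurons that CB1 inhibits, fell by 1.49 ± 0.20 (SE), and by 0.54 as the mean of its probe sets (adjusted p 0.00171). Cacna1b, of the N-type calcium channel that CB1 restrains in terminals, rose by 0.62 ± 0.13, Adcy8 by 0.72 ± 0.15 and the inhibitory G protein gene Gnai1 by 0.35 ± 0.08. Cacna1a (0.77 ± 0.22) and the potassium channel gene Kcnj3 (0.95 ± 0.29), named outside the rule, passed by a narrow margin. The Kcnj3 difference was -0.15 with the cortex marker mean as a covariate.

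Of 6 partners and trafficking genes of CB1, 2 rose and 1 fell (median 0.04). Gprasp1, whose protein sends internalised CB1 to lysosomes, rose by 0.61 ± 0.07 (SE), and the receptor kinase gene Grk3 by 0.72 ± 0.15. Sgip1, which slows CB1 internalisation, fell by 0.23 ± 0.07, and the arrestin gene Arrb2 gave 0.17 ± 0.07 (adjusted p 0.150). Of 14 other enzymes and carriers, 2 fell and 2 rose (median 0.01). These were Inpp5d (-0.32 ± 0.07) and the fatty acid binding protein gene Fabp5, a carrier of anandamide (-0.32 ± 0.07), and Gdpd1 (0.38 ± 0.06) and Fabp3 (0.45 ± 0.09). None of 4 other receptor genes passed by limma, with 0 at an unadjusted p under 0.05, and the group means of all 4 (3.21 to 4.85) lay below the array medians. Gpr18 gave -0.09 and Pparg -0.02, and Ppara and Trpv1 lay closer still to 0.

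Of these 20 pathway calls, 2 held with the cortex marker mean as a covariate, Homer1 (-0.71) and Gprasp1 (0.56). With the choroid-rich arrays left out 6 held. Over all genes 3066 passed in the main fit, 170 with this covariate and 880 without those arrays, so the loss was general. The cortex marker mean itself differed between genotypes (6.83 in R6/2, 5.72 in wild-type mice), so the covariate overlaps with genotype. The SE of Homer1 was 0.07 in the main fit and 0.12 with it. A lost call there thus cannot show that a gene depends on cortex content. Among the lost calls, Plcb1 (-0.54), Gdpd1 (0.46) and Gnaq (0.33) had values near their main ones in the cortex fit, while Adcy8 (0.21), Grk3 (0.25), Gnai1 (0.15), Plcb4 (0.21), Fabp3 (0.24), Grm5 (-0.40) and Chrm1 (-0.31) were smaller by over 1.5 times. In the age fit, R62_86 alone against the wild-type mice, Homer1 was -0.78 and Gprasp1 0.53, and Sgip1 was -0.14. With the mean of each gene's probe sets Gprasp1 was 0.35 and Fabp3 0.28, both still past the threshold. Sgip1 was then -0.02 (adjusted p 0.826), and Gdpd1 (0.17), Plcb4, Gnai1, Cacna1a (0.25) and Cacna1b no longer passed (adjusted p 0.0541 to 0.119). Gdpd1 (0.0524) and Cacna1a (0.0726) did not pass after centring on housekeeping genes. When single mice were left out, Kcnj3 held only without R62_107 or wild-type 46 (otherwise adjusted p 0.0649 to 0.113) and Cacna1a only without R62_109 or wild-type 46 (otherwise 0.0526 to 0.0798). Sgip1 held only without R62_86 or wild-type 47 (otherwise 0.0519 to 0.0900), and Plcb4 only without R62_95, R62_107, wild-type 47 or wild-type 49 (otherwise 0.0587 to 0.0825).

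**Figure D4:**
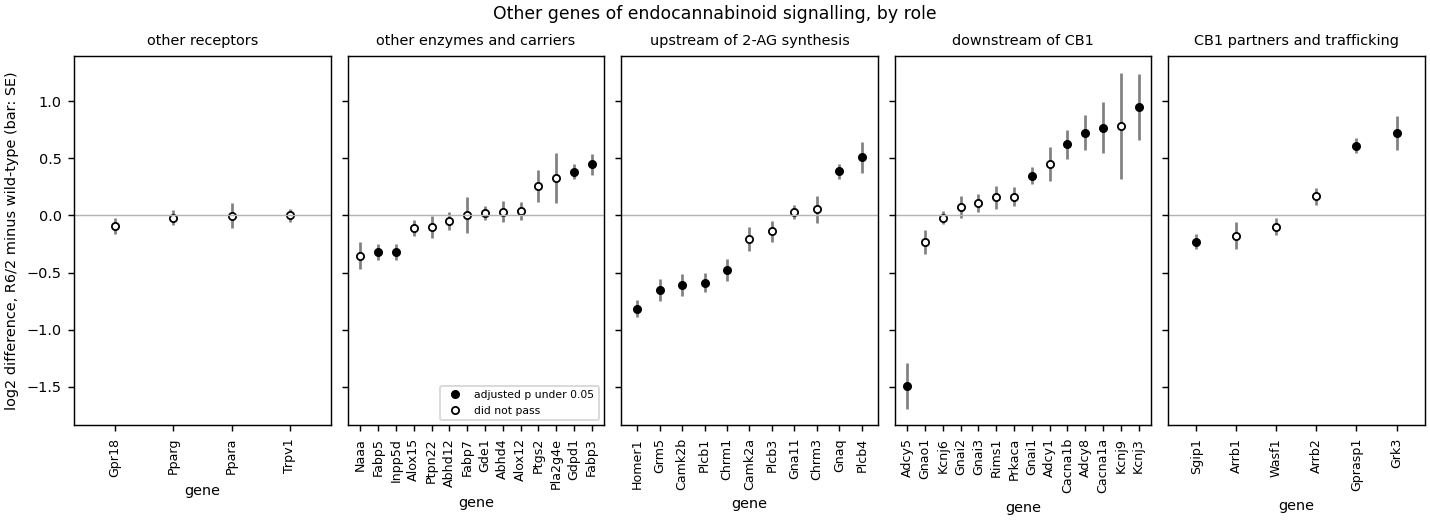
Log2 differences, R6/2 minus wild-type, with SE, of 49 other pathway genes sorted within 5 roles, filled where the adjusted p was under 0.05. Homer1, Grm5, Camk2b, Plcb1 and Chrm1 lie lowest among the genes upstream of 2-AG synthesis. By main probe set Adcy5 has the lowest value of the 49 genes, at -1.49, but is -0.54 as the mean of its probe sets, where Homer1 is -1.17.

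The genes whose values over the 9 arrays lay closest to those of each changed gene were found by the root mean square difference after each gene was set to a mean of 0. For Cnr1 these were Neto2 (0.11 log2 units), Pdp1 (0.13), Kcnab1 (0.15), Acvr1c (0.15) and Pcp4l1 (0.15). For Cnrip1 they were Cdk14 (0.10), Atp6v1a (0.10), Sh3gl2 (0.11), Cadps (0.11) and Cntnap4 (0.12). For Faah they were Chl1 (0.12), Btbd11 (0.12), Atp6v1a (0.13), Akap12 (0.13) and Irs1 (0.14). Atp6v1a, of the vacuolar proton pump, was among the 5 nearest genes of both. These genes were picked for likeness over the same arrays, so their own differences between genotypes follow from the choice.

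**Figure D5:**
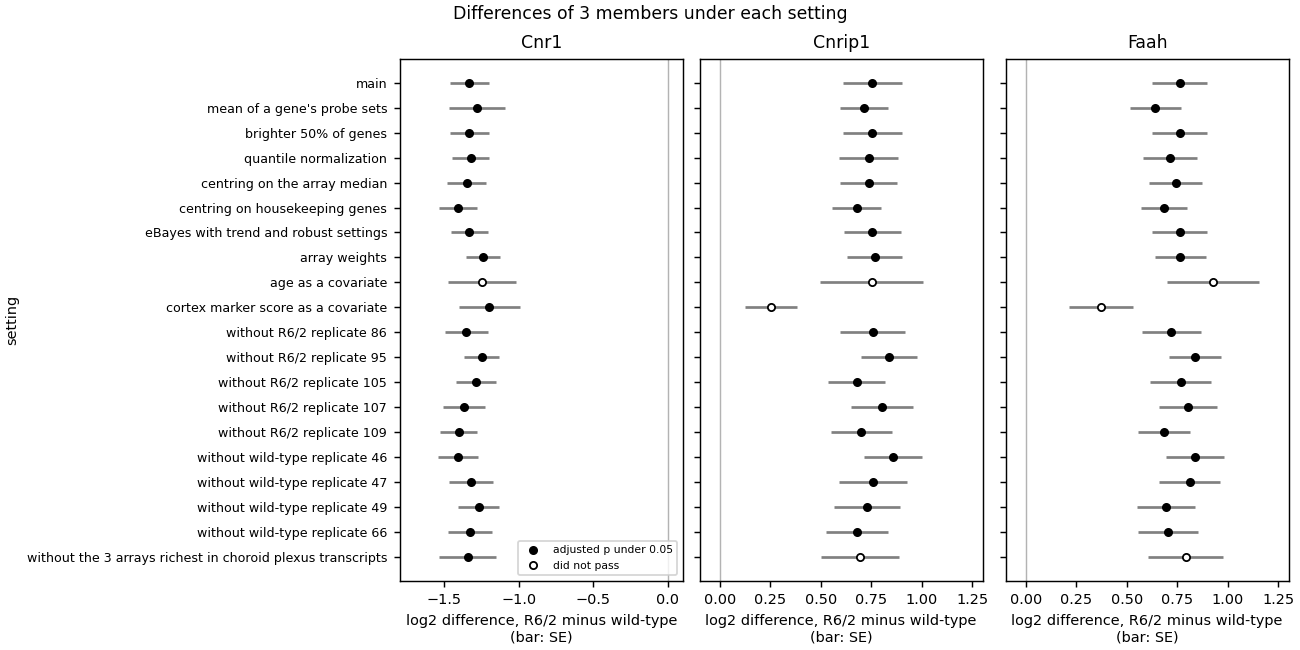
Log2 differences, R6/2 minus wild-type, with SE, of Cnr1, Cnrip1 and Faah in the main fit and 19 other settings (replicate numbers are mouse numbers), filled where the adjusted p was under 0.05. Cnr1 stays between -1.41 and -1.20 in all of them, whereas Cnrip1 and Faah are smallest, at 0.25 and 0.37, with the cortex marker mean as a covariate. The setting with age as a covariate sets R62_86 alone against the wild-type mice.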

How the data were processed

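Striatal RNA of 9 mice, 5 R6/2 and 4 wild-type, was hybridised to whole-genome arrays, 1 array per mouse. The deposited values are log2 expression of 45101 probe sets, which the authors computed by RMA (affy), per the submitters' processing notes, with no version stated in those notes. RMA brings the arrays to a common distribution, so a difference is relative to all genes. The number of arrays limits the precision.

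Names came from the annotation of the platform, with symbols and positions from RefSeq (GRCm38.p6) for 34754 of 34958. Genotypes were compared with limma 3.58.1 in R 4.3.3, two-sided, with Benjamini-Hochberg adjustment over 18194 genes, or over all probe sets where stated. No dim probe set was left out. Single values per mouse were compared by exact permutation. Named pathway genes were up to 4 of each role list by smallest p, plus the leading gene that went against the list's median, and Chrm1, Plcb4, Cacna1a and Kcnj3 were added after their values were seen. The members and lists were chosen with earlier results of these data known. Other settings were probe set summary, brightness filter, scaling, variance model, covariates and left-out mice. Tested on simulated data for this comparison over 18194 genes, limma recovered 71.6% of 67 genes changed by 0.5, 95.5% of 67 changed by 1 and 100% of 66 changed by 2. Of its calls in these simulated data, 5.82% were false. Figures were drawn with matplotlib 3.10.9.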

Additional observations from a re-analysis of the deposited data

Results flagged for a closer look

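Gaps between 1 mouse and the rest of its group were tested for the 16 probe sets, the 6 pairs and 4 marker scores, 52 groups in all, of which chance flags about 1 in 20. The dimmer Cnr1 probe set was 5.00 in R62_95, far below the other R6/2 mice (6.29 to 6.61). The mean of 7 housekeeping genes was 11.55 in R62_95, below the other R6/2 mice (11.70 to 11.77). The same mean was 11.71 in wild-type 46, above the other wild-type mice (11.58 to 11.60). In R62_95 the Gapdh control probe set at the 3' end exceeded that at the 5' end by 0.40, against -0.22 to -0.06 in the other 8 mice. The part of RNA integrity in the low Cnr1 value was not tested.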

How the results depend on the processing

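No paired analysis was possible because the genotypes share no mouse number. Leaving out single mice gave 2183 to 2984 genes past the threshold, 1120 to 1699 of them higher (1120 without wild-type 47) and 1020 to 1386 lower. Among the pathway genes 8 to 11 were then higher and 8 to 9 lower, and among the members 2 were higher and 1 to 2 lower. Cnr1 ranged from -1.41 to -1.25, Cnrip1 from 0.68 to 0.86, Faah from 0.68 to 0.84, Dagla from -0.50 to -0.26 and Mgll from -0.35 to -0.17. The pairs ranged from -2.27 to -1.96 (Cnr1 minus Cnrip1), -0.42 to -0.24 (Dagla minus Daglb), -0.74 to -0.53 (Napepld minus Faah) and -0.37 to -0.17 (Mgll minus Abhd6, which passed without R62_95).

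Dagla passed, making 2 lower members, among the brighter 50% of genes (-0.38), after quantile normalization (-0.41), after centring on the array median (-0.39) or on housekeeping genes (-0.45) and with array weights (-0.44). Averaging probe sets made Mgll pass (-0.22), again 2 lower members, and left 6 higher pathway genes. Housekeeping centring left 660 higher genes, 31.5% of calls higher against 55.1% in the main fit, and moved the median of all genes to -0.09. The housekeeping mean was itself 0.08 higher in R6/2 mice. With age as a covariate 30 genes passed (4 higher, 26 lower), with 0 pathway genes and 0 members in either direction, and Cnr1 was -1.25, Cnrip1 0.75 and Faah 0.93. With the cortex marker mean as a covariate 170 passed (59 higher, 111 lower), with 1 higher and 1 lower pathway gene and 0 higher members, and Cnrip1 was 0.25 and Faah 0.37. With the choroid-rich arrays left out 880 passed (393 higher, 487 lower), with 2 higher and 4 lower pathway genes and 0 higher members. Cnrip1 was then 0.69, Faah 0.79, Cnr1 minus Cnrip1 -2.04, Dagla minus Daglb -0.20 and Napepld minus Faah -0.82, where the smallest permutation p is 0.0667. Dagla minus Mgll turned to 0.11 there. Among members that did not pass, signs also turned for Napepld (-0.36 with the cortex mean), Cnr2 (0.08 with it), Daglb (0.15 with age) and Abhd6 (-0.14 with the choroid-rich arrays left out). The causes were not tested. Cnr2, Daglb and Napepld are not among the brighter 50% of genes and have no value there. Refitting the probe sets with single mice left out was chosen after seeing the data. Signal near background limits what can be said of Cnr2.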
